A study of Mus musculus with 60 samples.

Results

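H3K27me3, the trimethyl mark on lysine 27 of histone H3, was described over 10 genes of the cartilage lineage, out of 21911 protein-coding genes of the GENCODE annotation of the mouse build mm10. With earlier results of these data known, the genes were listed by name, and no measured value was used as a rule to choose them. They were the transcription factor genes Sox9, Sox5 and Sox6, the matrix genes Col2a1, Acan, Col9a1, Comp and Matn1, the gene of hypertrophic cartilage Col10a1, and the signal gene Ihh. Each gene was taken as its body with 50 kb on each side, called its window here, and its start site as the start of the gene record with 1 kb on each side. A called peak means a block of signal that the caller kept in 1 deposited list.

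Cartilage arises when mesenchymal progenitors condense and become chondrocytes. SOX9 directs that step, and SOX5 and SOX6 act beside it on the genes of the cartilage matrix, such as those for type II and type IX collagen and for aggrecan. H3K27me3 is written by Polycomb repressive complex 2 and lies over many developmental genes of other lineages in cells that do not use them.

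The mark was mapped by CUT&RUN, which uses an antibody to bring a nuclease to the mark and sequences the fragments it cuts out. The cells were C3H 10T1/2, an established line of mouse mesenchymal progenitors. Every group carried a lentiviral transgene for human histone H3.1 with HA and FLAG tags at its C terminus, driven by the EF1 promoter and kept by puromycin selection. The transgene was wild type (H3WT) or had cysteine in place of 1 arginine (H3R2C, H3R8C, H3R17C or H3R26C). The endogenous H3 genes were present in all groups, so the tagged histone was added to a wild-type pool, and H3WT was the control. Each group had 3 labelled replicates for each antibody. The lists of replicates 1 and 2 were identical in every group with anti-HA and in H3WT, H3R2C, H3R8C and H3R26C with anti-H3K27me3, and were counted as 1 library. For H3R17C with anti-H3K27me3, replicates 2 and 3 were identical and replicate 1 was left out because the name of its list gave another mark. This left 9 H3K27me3 lists, 2 for each genotype and 1 for H3R17C, and 10 HA lists. Whether identical lists are 1 library entered more than once or peaks called on merged replicates is not given in the sources used here, so n counts distinct lists. The labels do not say that replicates came from separate cultures, so p-values measure the spread between these libraries only.

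The 9 H3K27me3 lists held 20077 to 24598 peaks and covered 64.2 to 130 Mb. The smallest peak of a list, on the scale explained below, was 0.118 to 0.188, so a weaker block was not detectable. As a check of the cells, none of 7 mesenchymal genes (Col1a1, Col1a2, Vim, Thy1, Pdgfrb, Prrx1 and Twist1) and none of 6 housekeeping genes had a peak over the start site in any list. Of all protein-coding genes 82.5% had none, so this absence alone is a weak check. Some of their windows held peaks away from the start, such as Col1a2 over 0 to 30.6% and Twist1 over 12.9 to 37.4%. All 6 genes of neural and endodermal lineages had a start-site peak in 5 or more lists, where 7.62 to 11.9% of all genes had one in a single list.

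For 7 of the 10 genes RefSeq gives a promoter of GRCm38.p6, the same build as mm10, from 250 bases before the start to 50 after it. Sox9, Col2a1 and Comp were not matched. The promoters of 4 genes that carried the mark at the start, and of Col10a1, which did not, are shown 5′ to 3′ with each CG, the pair that DNA methylation and CpG islands are defined by, in capitals.
Ihh promoter (chr1:74951623-74951922, minus strand): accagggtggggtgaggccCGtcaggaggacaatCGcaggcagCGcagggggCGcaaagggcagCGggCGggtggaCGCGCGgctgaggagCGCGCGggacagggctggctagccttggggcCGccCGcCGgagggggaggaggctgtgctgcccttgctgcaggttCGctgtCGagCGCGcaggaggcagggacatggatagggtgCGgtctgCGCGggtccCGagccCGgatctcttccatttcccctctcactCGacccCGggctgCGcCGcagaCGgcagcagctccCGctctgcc
Acan promoter (chr7:79052976-79053275, plus strand): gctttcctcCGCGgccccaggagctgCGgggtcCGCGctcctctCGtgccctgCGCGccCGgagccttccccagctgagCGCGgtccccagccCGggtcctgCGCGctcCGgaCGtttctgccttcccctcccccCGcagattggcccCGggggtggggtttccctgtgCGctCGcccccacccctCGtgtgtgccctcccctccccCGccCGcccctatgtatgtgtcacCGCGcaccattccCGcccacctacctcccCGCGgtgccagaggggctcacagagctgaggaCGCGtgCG
Sox6 promoter (chr7:116038695-116038994, minus strand): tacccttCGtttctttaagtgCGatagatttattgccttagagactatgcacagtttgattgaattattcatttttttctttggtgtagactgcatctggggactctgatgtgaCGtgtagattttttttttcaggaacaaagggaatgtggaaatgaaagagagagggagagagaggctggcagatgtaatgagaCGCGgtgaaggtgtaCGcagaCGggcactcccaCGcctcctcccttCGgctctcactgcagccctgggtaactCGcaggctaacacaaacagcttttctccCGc
Col9a1 promoter (chr1:24177360-24177659, plus strand): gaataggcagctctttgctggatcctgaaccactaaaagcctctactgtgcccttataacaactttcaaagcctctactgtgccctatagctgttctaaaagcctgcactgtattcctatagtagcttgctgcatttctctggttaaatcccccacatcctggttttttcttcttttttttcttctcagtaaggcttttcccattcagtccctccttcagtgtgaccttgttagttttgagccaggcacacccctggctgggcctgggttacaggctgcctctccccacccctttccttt
Col10a1 promoter (chr10:34389731-34390030, plus strand): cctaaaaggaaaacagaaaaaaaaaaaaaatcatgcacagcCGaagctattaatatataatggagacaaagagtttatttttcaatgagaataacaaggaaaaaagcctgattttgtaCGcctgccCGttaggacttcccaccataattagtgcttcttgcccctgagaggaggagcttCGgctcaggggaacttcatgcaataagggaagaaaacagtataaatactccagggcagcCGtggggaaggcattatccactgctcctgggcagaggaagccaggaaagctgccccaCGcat
The Acan and Ihh promoters held 31 and 30 CG, against a median of 7 over the 32851 promoters of the table, 94.6% of which held at least 1. The Sox6 promoter nearest the start of the gene record held 11, the Col10a1 promoter 6 and the Matn1 promoter 6. The Col9a1 promoter at the start of the gene record held none, and only 5.43% of promoters have none. The E-box CANNTG occurred in 72.3% of all promoters, and in those of Acan, with 1, Sox6, with 2, and Matn1, with 3. The core motif of SOX proteins, ACAATG or ACAAAG on either strand, occurred in 28.6% of all promoters and once each in those of Sox6 and Col10a1. The table gives 5 further promoters of Sox6, inside the gene, with 2 to 13 CG and 0 to 4 SOX cores, and 1 of Col9a1, with 1 CG, which are not shown. The promoter of Sox5 in the table lay 835 kb inside the GENCODE gene record, at another start, and is not shown. These matches describe letters in a window of 300 bases.

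Over the start sites, 2 of the 10 genes, Ihh and Acan, had an H3K27me3 peak in all 9 lists, against 3.91% of all protein-coding genes. For 5 of them, Sox9, Sox5, Col2a1, Comp and Col10a1, no list had one, against 82.5% of all genes. The other 3, Sox6, Col9a1 and Matn1, had a peak in some lists. In a single list, 7.62 to 11.9% of all genes had a start-site peak.

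**Figure D1:**
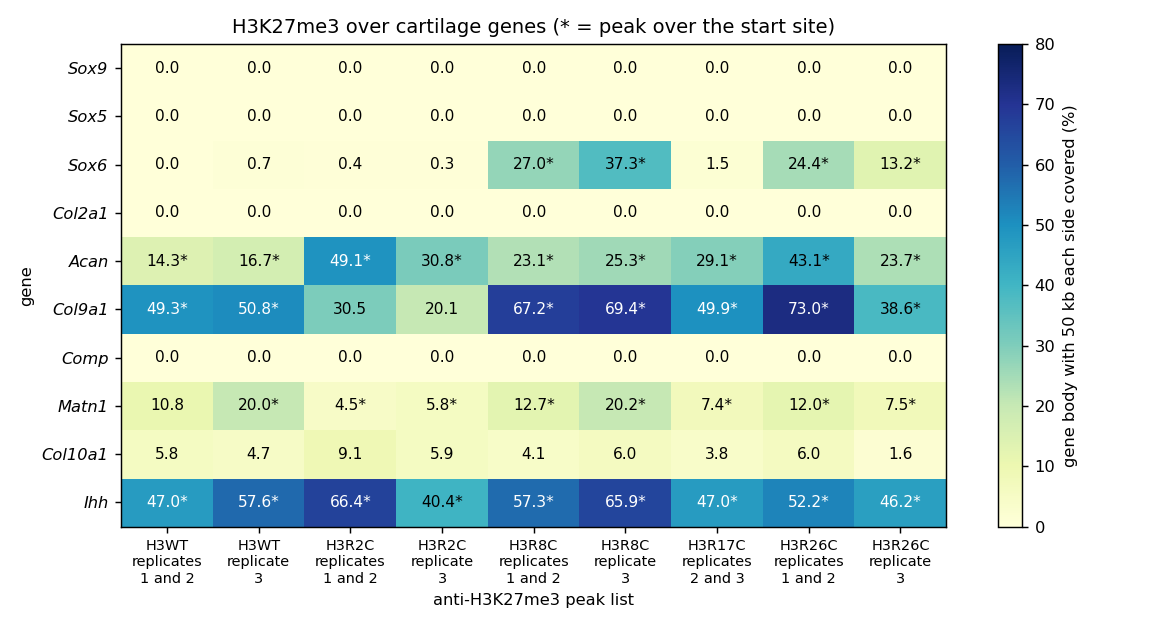
Percent of each gene body with 50 kb on each side that H3K27me3 peaks covered, by gene (rows) and independent list (columns), with an asterisk where a peak lay over the start site. Sox9, Sox5, Col2a1 and Comp were at 0 in all 9 lists, and Sox6 reached 13.2 to 37.3% in the H3R8C and H3R26C lists against at most 1.55% in the others.

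Sox9 (chr11:112782224-112787760, plus strand), the gene of the factor that chondrocytes require, had no H3K27me3 peak in its window in any list. The nearest peak to its start lay 82.7 and 126 kb downstream in the H3R2C lists and 1008 to 1477 kb away in the other 7. Sox5 (chr6:143828425-144781977, minus strand), a partner of Sox9, had no peak in its window of 1054 kb, and its nearest peak was 373 kb away or farther. Both genes were therefore free of called H3K27me3 in cells of every genotype, although blocks below the level of a list could not have been seen.

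Sox6 (chr7:115470872-116038796, minus strand), the other partner of Sox9, showed the largest differences in window signal between genotypes among the 10 genes. Its start site was covered in both H3R8C and both H3R26C lists and in none of the 5 others. The covered share of the gene was 24.4 and 35.9% in H3R8C and 24.0 and 12.6% in H3R26C. It was 0 in both H3WT lists and in H3R17C, and 0 and 0.405% in H3R2C. The nearest peak to the start lay 550 and 24.6 kb away in H3WT, 24.8 and 23.5 kb away in H3R2C and 10.5 kb away in H3R17C. In the H3R8C and H3R26C lists 27 to 43 separate peaks lay in the window and reached 298 and 337 kb into the gene in H3R8C and 545 and 548 kb in H3R26C, whereas the other lists held 0 to 4.

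To compare signal, the total signal of each peak, coverage summed over its length, was multiplied by the share of the peak inside the window, summed, and divided by the median over the 5401 regions called in all 9 lists. A value of 1 is therefore the signal of a typical shared region. The Sox6 window held 23.5 and 34.8 in H3R8C and 13.8 and 15.1 in H3R26C. It held 0 and 0.351 in H3WT, 0.199 and 0.179 in H3R2C and 1.33 in H3R17C. The H3R8C and H3R26C libraries thus lay above all others without overlap.

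Differences were tested with limma on log2(scaled signal + 0.25), with Benjamini-Hochberg adjustment of the p-values across the 11223 genes whose window held a peak in each library of 1 genotype or more. The 4 genotypes with 2 libraries were fitted together, on the scale of regions called in those 8 libraries. Of the 10 genes, 6 entered the fit, because Sox9, Sox5, Col2a1 and Comp had no signal. The 4 comparisons of a mutant with H3WT share the H3WT libraries. For Sox6, limma gave a log2 difference of 6.27 ± 0.41 (SE, n = 2 and 2, adjusted p = 0.00294) for H3R8C against H3WT. It gave 5.28 ± 0.41 (adjusted p = 0.000821) for H3R26C against H3WT, and -5.09 ± 0.41 (adjusted p = 0.000234) for H3R2C against H3R26C. The size of these differences depends on the pseudocount, because 1 H3WT library was at 0 and both H3R2C libraries were below the pseudocount. Over 16 alternatives each, the difference ran from 4.73 to 7.70, from 3.77 to 6.70 and from -5.93 to -3.74, with the adjusted p under 0.05 in all of them. For H3R2C against H3WT the difference was 0.18 ± 0.41 (adjusted p = 0.769), and it was -0.48 without H3WT replicates 1 and 2. For H3R17C, whose single library is assumed to vary like the others, it was 2.02 ± 0.49 (adjusted p = 0.198).

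Consensus regions, merged peaks present in each library of 1 genotype or more, placed the Sox6 signal along the gene. In its window lay 20 such regions, and adjacent regions of 1 domain are not independent. Of these, 18 were at 0 in both H3WT libraries and entered the table through the peaks of H3R8C or H3R26C, so the direction of any difference was fixed by that filter and the regions are given by their values, with no test. The region over the start (chr7:116033251-116059150), 25.9 kb long, held 3.44 and 4.25 in H3R8C and 2.12 and 3.49 in H3R26C, on the scale of the 8 libraries. It was at 0 in both H3WT and both H3R2C libraries, so no fold is given. The region with the highest mean signal (chr7:115875901-115934800) lay inside the gene, 104 to 163 kb from its start. It held 6.51 and 9.42 in H3R8C and 1.63 and 2.84 in H3R26C, and was at 0 in the 4 H3WT and H3R2C libraries. The start sites of 1110004F10Rik, at -0.601 kb from that of Sox6 along the gene, and of Gm4353, at -45.8 kb, each had a peak in 4 lists, so these signals cannot be assigned to Sox6 alone.

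**Figure D2:**
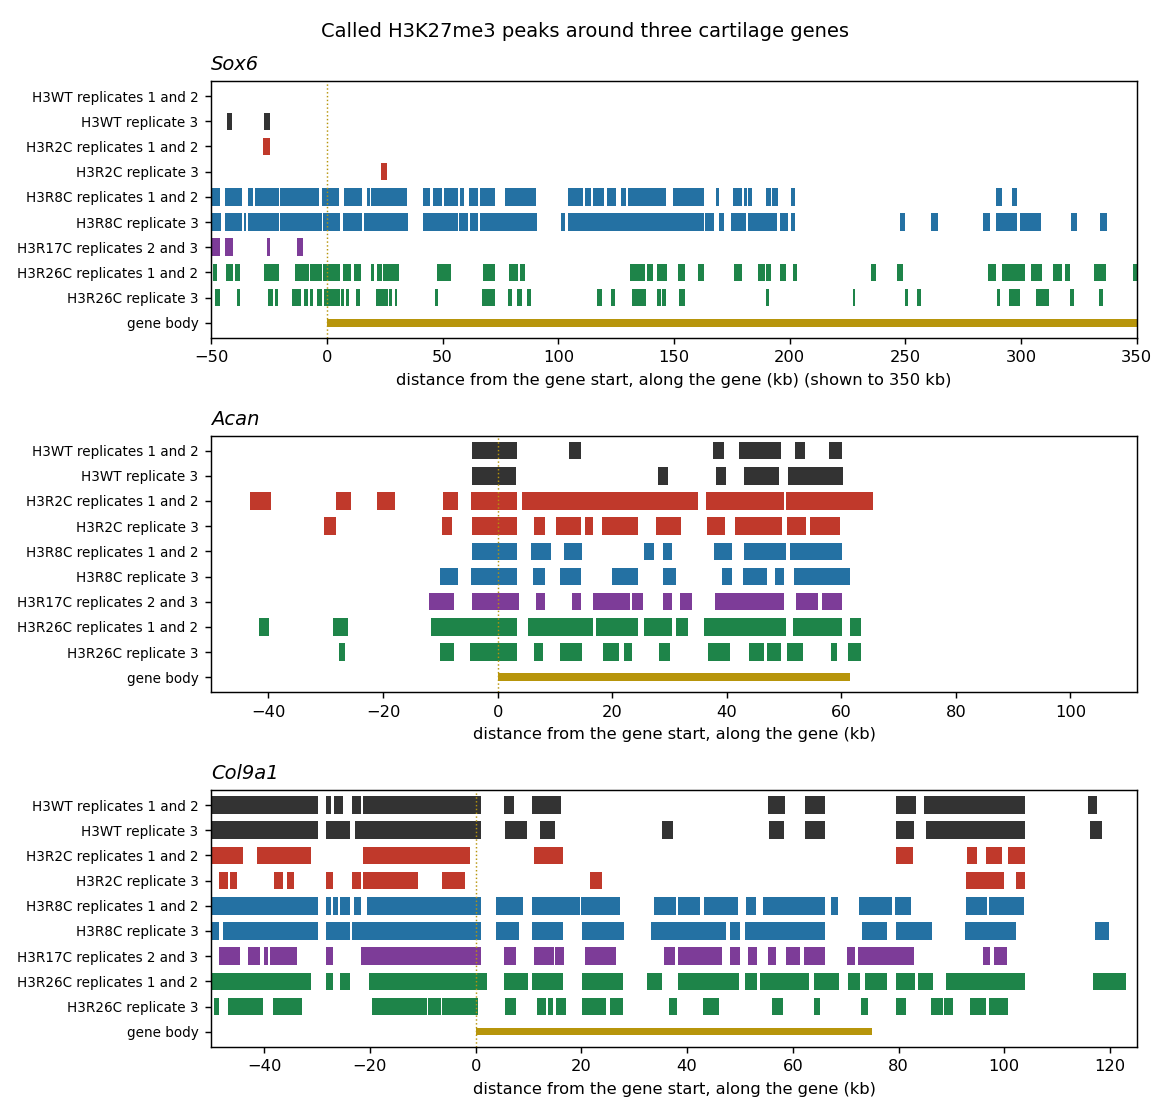
Called H3K27me3 peaks (bars) in each of the 9 lists by distance from the gene start in kb, along the direction of the gene, for Sox6 (its first part), Acan and Col9a1; the gene body is the bottom bar. The H3R8C and H3R26C lists cover the Sox6 start, and both H3R2C lists end short of the Col9a1 start. Peaks cover 30.5 and 36.5% of the Acan gene in the H3WT lists and 45.7 to 95.5% in the mutant lists.

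Among the matrix genes, Acan, Col9a1 and Matn1 carried the mark, whereas Col2a1 and Comp did not. Col2a1 (chr15:97975602-98004695, minus strand) encodes the main collagen of cartilage. Its window was at 0% in every list, and its nearest peak lay 160 to 186 kb upstream. Comp (chr8:70373558-70382066, plus strand), the gene of cartilage oligomeric matrix protein, was also at 0% in every list. Its nearest peak was 248 to 253 kb from the start in 7 lists and 566 and 665 kb in the H3R26C lists.

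Acan (chr7:79053483-79115099, plus strand), the gene of the proteoglycan aggrecan, had a start-site peak of similar length in 8 lists, 7.75 to 8.30 kb, and one of 14.9 kb in H3R26C replicates 1 and 2. The covered share of the gene was 30.5 and 36.5% in H3WT, 95.5 and 67.4% in H3R2C, 53.2 and 53.8% in H3R8C, 61.9% in H3R17C and 84.3 and 45.7% in H3R26C. The H3WT lists were the lowest. The first list of H3R2C and that of H3R26C also covered the most genome, 130 and 120 Mb, and the part of this in the covered share was not tested. The scaled signal of the window differed less between libraries of a genotype, with 2.80 and 3.24 in H3WT and 9.35 and 8.86 in H3R2C. It was 5.33 and 4.85 in H3R8C, 6.76 in H3R17C and 8.24 and 8.20 in H3R26C.

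Acan rose in H3R2C by a log2 difference of 1.52 ± 0.13 (SE, n = 2 and 2, limma adjusted p = 0.000474) and in H3R26C by 1.37 ± 0.13 (limma adjusted p = 0.00138). Both calls held under all 16 alternatives. In H3R8C the difference was 0.72 ± 0.13 (limma adjusted p = 0.0379), a call that 13 of 16 alternatives ended. Leaving out any 1 of the 8 libraries ended it, with adjusted p from 0.0531 without H3R26C replicates 1 and 2 to 0.216 without H3R8C replicates 1 and 2. In H3R17C the difference was 1.10 ± 0.15 (limma adjusted p = 0.116). H3R2C and H3R26C differed by 0.15 ± 0.13 in limma (adjusted p = 0.362).

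By the same limma test on regions, 4 of the 5 consensus regions of the Acan window were higher in H3R2C than in H3WT, against 17.7% of all 20900 regions. Of these, 1, upstream of the gene, was at 0 in both H3WT libraries and entered only through H3R2C and H3R26C, so the filter fixed its direction. Adjacent regions are not independent, so the count is a description. The region not called higher was the one over the start (chr7:79041901-79056900), which also had the highest mean signal of the window. It held 1.23 and 1.24 in H3WT, 1.23 and 1.65 in H3R2C, 1.88 and 1.89 in H3R8C and 2.53 and 3.20 in H3R26C. Its limma log2 difference was 0.17 ± 0.17 (adjusted p = 0.476) in H3R2C and 1.06 ± 0.17 (adjusted p = 0.00931) in H3R26C, and the second call was lost without H3WT replicate 3 (adjusted p = 0.0553) or without H3WT replicates 1 and 2 (adjusted p = 0.051). The direct comparison of H3R2C with H3R26C at this region gave -0.88 ± 0.17 (limma adjusted p = 0.00752). The region that follows in the gene body (chr7:79057751-79088500), from 4.27 to 35.0 kb after the start, was singled out after its values were seen. It held 0.176 and 0.148 in H3WT, 3.79 and 3.17 in H3R2C, 1.04 and 1.05 in H3R8C and 2.65 and 1.95 in H3R26C. The limma log2 difference from H3WT was 3.18 ± 0.17 (adjusted p = 7.87e-05) in H3R2C, 1.65 ± 0.17 (adjusted p = 0.00259) in H3R8C and 2.62 ± 0.17 (adjusted p = 0.000276) in H3R26C. With only the upper 50% of peaks, the adjusted p for H3R8C was 0.15.

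Col9a1 (chr1:24177610-24252684, plus strand), which encodes a chain of type IX collagen, moved the other way from Acan in H3R2C. It had a start-site peak in all lists but the 2 of H3R2C, where the nearest peak ended 1.01 and 2.01 kb upstream of the start. In the other 7 lists that peak ran across the start and ended 0.5 to 2.1 kb inside the gene. The covered share of the gene was 20.9 and 22.6% in H3WT, 7.33 and 3.0% in H3R2C, 73.1 and 70.0% in H3R8C, 54.5% in H3R17C and 73.2 and 30.8% in H3R26C. The scaled signal of the window was 11.8 and 11.7 in H3WT, 5.05 and 5.07 in H3R2C, 16.5 and 15.4 in H3R8C, 12.7 in H3R17C and 13.2 and 13.3 in H3R26C. H3R2C was the lowest in both measures.

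The Col9a1 window fell by 1.18 on the log2 scale in H3R2C (SE 0.11, n = 2 and 2, limma adjusted p = 0.000642), and the limma difference between H3R2C and H3R26C was -1.35 ± 0.11 (adjusted p = 0.000255). Both calls held under all 16 alternatives. The limma difference from H3WT was 0.45 ± 0.11 in H3R8C (adjusted p = 0.1), 0.16 ± 0.11 in H3R26C (adjusted p = 0.302) and 0.11 ± 0.13 in H3R17C (adjusted p = 0.887). Of 11 consensus regions in the window, 5 were lower in H3R2C than in H3WT, against 12.5% of all regions, and none was higher. Here too adjacent regions are not independent. The region over the start (chr1:24154251-24179700), with the highest mean signal of the window, held 4.42 and 4.19 in H3WT, 2.45 and 2.70 in H3R2C, 4.75 and 4.67 in H3R8C and 3.12 and 4.51 in H3R26C. Its limma difference in H3R2C was -0.69 ± 0.17 (adjusted p = 0.0294). Leaving out either library of H3WT, H3R2C or H3R8C ended that call, with adjusted p from 0.0645 to 0.145.

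Inside the Col9a1 gene the picture differed from that at its start. The region that begins 32.3 kb after the start and is 17.6 kb long (chr1:24209951-24227600), singled out after its values were seen, held 0 and 0.154 in H3WT and 0 and 0 in H3R2C. It held 1.82 and 1.63 in H3R8C and 1.17 and 0.713 in H3R26C. It entered the table only through H3R8C and H3R26C, where it is high, so no test is given.

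Matn1 (chr4:130944385-130955475, plus strand), the gene of matrilin-1, an adaptor protein of the cartilage matrix, carried short, weak peaks. A peak of 1.55 to 4.9 kb lay at its start in every list but that of H3WT replicates 1 and 2, where the nearest peak was 10.5 kb downstream. The scaled signal of the window was 1.10 and 2.14 in H3WT, 0.370 and 0.791 in H3R2C, 1.47 and 1.92 in H3R8C, 1.13 in H3R17C and 1.19 and 1.3 in H3R26C. The H3WT libraries thus differed from each other nearly as much as the genotypes did. The limma difference in H3R2C was -1.17 ± 0.37 (adjusted p = 0.0475), and 11 of 16 alternatives ended the call. Of the libraries left out in turn, only the fit without H3WT replicates 1 and 2 kept it, and the adjusted p was 0.0737 without H3R2C replicate 3, 0.249 without H3R2C replicates 1 and 2, 0.209 without H3WT replicate 3 and 0.0884 to 0.0922 without a library of H3R8C or H3R26C. The adjusted p of the other mutants in limma was 0.623 or higher. The region over the Matn1 start (chr4:130942201-130947150) passed no test, with limma adjusted p from 0.577 to 0.79. The strongest region of its window (chr4:130953351-130958600), at the 3′ end of the gene, held 0.353 and 0.406 in H3WT and 0 and 0.228 in H3R2C (limma adjusted p = 0.11).

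Col10a1 (chr10:34389981-34397085, plus strand) encodes the collagen of hypertrophic cartilage. No list had a peak over its start or its gene. The nearest peak lay 33.9 to 37.7 kb downstream in all 9 lists, and peaks covered 1.59 to 9.06% of the window. The scaled signal of the window was 0.833 and 0.620 in H3WT, 1.11 and 1.05 in H3R2C, 0.488 and 0.631 in H3R8C, 0.641 in H3R17C and 0.574 and 0.36 in H3R26C. None of the mutants passed the test against H3WT, with limma adjusted p of 0.27 for H3R2C, 0.28 for H3R26C, 0.746 for H3R8C and 1 for H3R17C. H3R2C was higher than H3R26C by 0.92 ± 0.29 (limma adjusted p = 0.0343). That call was lost without H3R26C replicate 3 (adjusted p = 0.147), without either library of H3R2C (0.0825 and 0.0991) and without either library of H3R8C (0.0541 and 0.0556). The signal came mostly from 1 region (chr10:34423901-34433650), which begins 33.9 kb after the start. The start of Nt5dc1, at 28.6 kb from that of Col10a1, lies nearer to this region. No list had an H3K27me3 peak over the Nt5dc1 start, but the signal cannot be assigned to Col10a1 alone.

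Ihh (chr1:74945315-74951672, minus strand) encodes Indian hedgehog, the signal by which prehypertrophic chondrocytes set the pace of growth. The sum over its window, which is not per length, had the highest mean of the 10 genes over the 8 libraries, 12.5, but this pools genotypes with different orders. Ihh led in H3WT (mean 12.39 against 12.21 for Col9a1, within the spread of the Ihh libraries), Acan in H3R2C (9.44 against 8.58 for Ihh), and Sox6 in H3R8C (30.5) and H3R26C (14.97 against 14.57 for Ihh). Its gene was covered whole in 7 lists, and to 90.6% in H3R2C replicate 3 and 86.6% in H3R26C replicate 3. The start-site peak was 7.05 to 43.0 kb long. The scaled signal of the window was 10.5 and 13.4 in H3WT, 8.53 and 8.03 in H3R2C, 14.1 and 13.6 in H3R8C, 11.2 in H3R17C and 11.6 and 16.6 in H3R26C. The H3R2C libraries were the lowest. The limma difference of H3R2C from H3WT was -0.51 ± 0.20 and did not pass the test (adjusted p = 0.0941), though it did without either H3R26C library (adjusted p = 0.0474 and 0.048) and with 10 kb in place of 50 kb on each side (adjusted p = 0.0306). That of H3R2C from H3R26C was -0.72 ± 0.20 (limma adjusted p = 0.0206), and it was lost without H3R26C replicate 3 (adjusted p = 0.06) or either H3R2C library (adjusted p = 0.101 and 0.152). The adjusted p of the other mutants against H3WT was 0.448 or higher. The region over the start (chr1:74913201-74964100) spans 50.9 kb and also covers the start of Cfap65, 16.1 kb away, which had a peak in all 9 lists, so the signal is not that of Ihh alone.

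By Pearson's r of log2 window signal over the 8 libraries, the genes on other chromosomes most like Ihh were Slc32a1 (r = 0.974), Nphs1 (r = 0.965) and Prodh2 (r = 0.962). Genes on the chromosome of Ihh were not ranked, and the values are given as a description.

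**Figure D3:**
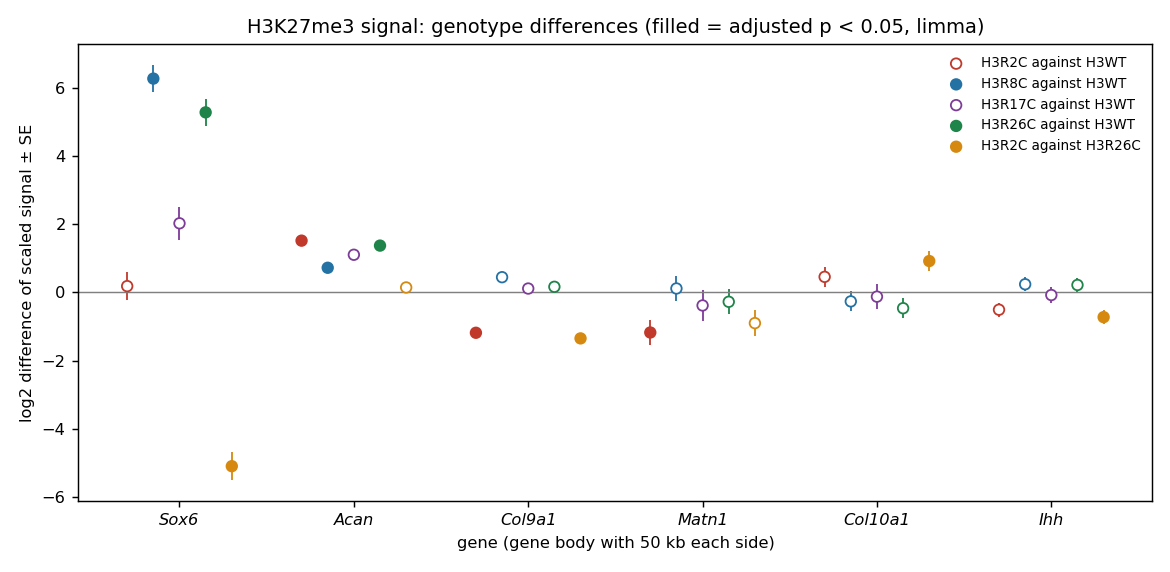
Limma log2 difference of scaled H3K27me3 signal, with its SE, for the 6 genes in the fit and 5 comparisons; filled points have an adjusted p under 0.05. Sox6 stands at 6.27 and 5.28 in H3R8C and H3R26C, Acan is above 0 in all 4 mutants, and Col9a1 is at -1.18 in H3R2C.

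Counted over the 6 genes in the fit, limma at an adjusted p under 0.05 called 1 higher (Acan) and 2 lower (Col9a1 and Matn1) in H3R2C than in H3WT, where 22.0% of all 11223 genes were called higher and 13.5% lower. In H3R8C it called 2 higher (Sox6 and Acan) and 0 lower, where 1.15% of all genes were higher and 1.60% lower. In H3R26C it called 2 higher (Sox6 and Acan) and 0 lower, where 11.6% were higher and 17.6% lower. For H3R17C it called none of the 6 and none of all genes (0%), of which 1181 had an unadjusted p under 0.05, Acan and Sox6 among them. H3R2C was lower than H3R26C at 3 (Sox6, Col9a1 and Ihh) and higher at 1 (Col10a1), where 19.3% of all genes were lower and 35.1% higher. The median log2 difference of the 6 genes was -0.16 in H3R2C, 0.34 in H3R8C, 0.19 in H3R26C and 0.02 in H3R17C. That of all genes was 0.16 in H3R2C, 0 in H3R8C, -0.003 in H3R26C and 0 in H3R17C, and 0.26 for H3R2C against H3R26C, where the 6 genes had -0.81.

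Of 27 other genes of cartilage, among them further collagens, matrix proteins, transcription factors and members of the hedgehog, PTHrP, FGF and BMP pathways, 23 had no H3K27me3 peak over the start in any list, where 82.5% of all genes had none. The other 4 were Bmpr1b in 8 lists, Ptch1 in 6, Pth1r in 2 and Chad in 1. In the fit were 14 of the 27. Limma called 4 higher and 1 lower in H3R2C than in H3WT, where 22.0 and 13.5% of all genes were. It called 3 higher and 2 lower in H3R26C (all genes 11.6 and 17.6%) and 0 higher and 1 lower in H3R8C (1.15 and 1.60%). In H3R17C it called none, with 3 at an unadjusted p under 0.05. Among the higher ones Hapln1, counted in H3R2C and H3R26C, and Cnmd, counted in H3R26C, entered the fit only through the mutants in which they had peaks. The filter thus fixed their direction, and these calls are not a result.

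Pth1r, the receptor of parathyroid hormone-related protein, had a start-site peak in both H3R2C lists only. Its window held 2.49 and 2.36 in H3R2C and 0.385 and 0.453 in H3WT, and was listed at 0 in the 5 libraries of the other mutants. The limma log2 difference of H3R2C was 2.01 ± 0.24 (adjusted p = 0.00145). The limma adjusted p was 0.0061 for H3R26C and 0.0297 for H3R8C, and leaving out either library of H3WT or H3R8C ended the H3R8C call, with adjusted p from 0.0675 to 0.175. So did the replicate block (0.0575), no filter (0.0534) and a pseudocount of 1 (0.0782). Ptch1, the hedgehog receptor and a target of that signal, held 0.168 and 0.516 in H3WT, 2.37 and 1.82 in H3R26C and 3.24 and 1.08 in H3R2C. It was higher in H3R26C by 2.06 ± 0.52 (limma adjusted p = 0.0279) and in H3R2C by 1.95 ± 0.52 (limma adjusted p = 0.0278). Its start-site peak was in both lists of H3WT, H3R8C and H3R26C but in no H3R2C or H3R17C list. The higher window signal of Ptch1 in H3R2C therefore came from peaks away from the start. Without a library of H3WT, H3R8C or H3R26C the adjusted p of Ptch1 in H3R26C was 0.056 to 0.132. In H3R2C it was 0.0617 to 0.156 without any 1 library except H3R2C replicate 3 or H3WT replicate 3, and with 10 kb on each side the difference was -0.63 (adjusted p = 0.0822). Mef2c, a transcription factor of hypertrophic chondrocytes, was lower in H3R2C by a log2 difference of -1.33 ± 0.23 (limma adjusted p = 0.00581), with 0.543 and 0.909 against 2.15 and 2.12 in H3WT.

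Col9a3, another chain of type IX collagen, was higher in H3R2C by 1.11 ± 0.21 (limma adjusted p = 0.00843), with 2.60 and 2.04 against 0.942 and 0.924 in H3WT, the opposite direction to Col9a1. Hapln1, the link protein that holds aggrecan on hyaluronan, was listed at 0 in both H3WT libraries. It held 1.19 and 0.756 in H3R2C and 0.890 and 0.222 in H3R26C, and was at 0 in H3R8C and H3R17C. Wwp2, a ubiquitin ligase whose gene hosts a microRNA of cartilage, held 0.179 and 0 in H3R26C against 1.58 and 1.49 in H3WT (limma adjusted p = 0.0057). Cnmd, the gene of chondromodulin, was listed at 0 in all lists but those of H3R26C, which held 0.257 and 0.211. No test is given for Hapln1 and Cnmd, which passed the filter only where they were high.

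The HA lists show where the tagged histone was called. They differed widely in number and width, with 15344 peaks of median width 10.7 kb in H3WT replicates 1 and 2 and 37907 to 52083 peaks of median width 0.8 to 2.65 kb in the others, so they are given by range. Over the start sites, 4 of the 10 genes had an HA peak in at least 1 of 10 lists, against 42.8% of all protein-coding genes. They were Col2a1 in 6 lists, Comp in 6, Sox6 in 2 and Col10a1 in 1. HA peaks covered 18.8 to 79.0% of the Col2a1 window (median 53.8%), 20.1 to 82.7% of the Comp window (median 39.6%) and 5.21 to 36.2% of the Sox9 window (median 10.7%). These are 3 of the 4 genes whose windows held no H3K27me3 in any list. The fourth, Sox5, had at most 0.0902% of its window under HA peaks. At Sox9 the HA peaks lay outside the gene, whose body was at 0% in all 10 HA lists. In a single list, 37.0 to 48.7% of all genes had an H3K27me3 peak in the window, so windows without one were common. Over all genes, the mean share of the window under HA peaks was 2.79 to 15.2% by list, and the median 0 to 2.12%.

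HA peaks covered at most 1.79% of the Ihh window, 4.18% of the Acan window and 6.25% of the Col9a1 window. Over the Col10a1 window, HA peaks covered 0 to 27.3% (median 3.50%), the most in H3WT replicates 1 and 2. They covered 18.5% of the Matn1 window in H3WT replicates 1 and 2, where the mean over all genes was 15.2%, and 0 to 4.32% in the other 9 lists. The Sox6 start had an HA peak in both H3WT lists and in none of the 8 mutant lists, whereas its H3K27me3 peak was present in H3R8C and H3R26C and absent in H3WT. HA peaks covered 14.2 and 4.87% of the Sox6 window in H3WT and 0 to 1.80% in the mutants. The H3WT lists also covered the most genome with HA, 213 and 135 Mb against 42.9 to 93.4 Mb, and the part of this in the Sox6 values was not tested. Over all genes, 43.3% of those with H3K27me3 at the start in all 9 lists and 44.0% of those with it in no list had an HA peak over the start in at least 1 list.

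**Figure D4:**
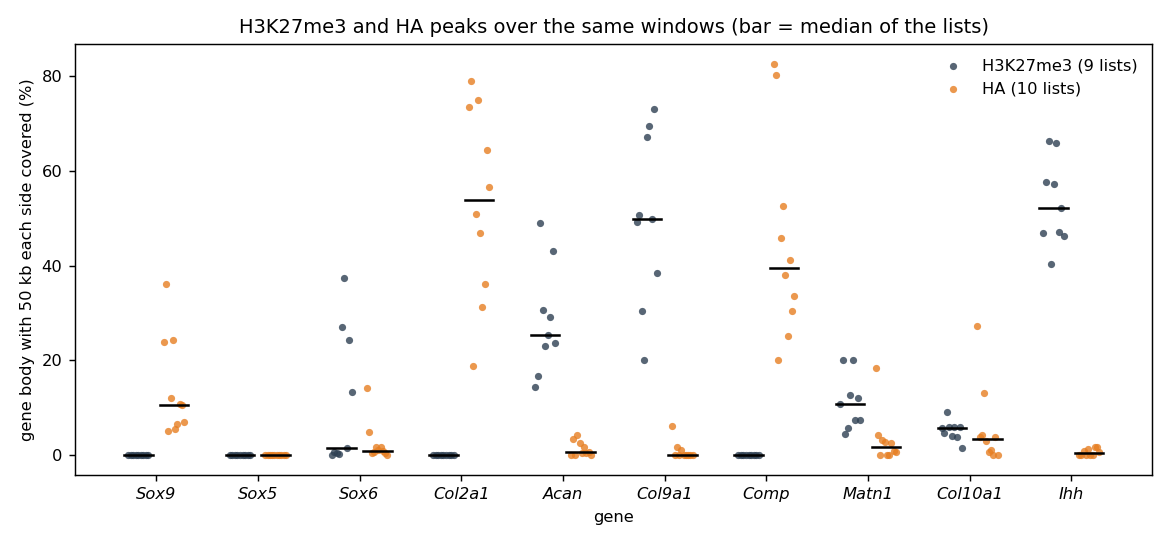
Percent of each gene body with 50 kb on each side covered by H3K27me3 peaks (dark points, 9 lists) and by HA peaks (orange points, 10 lists), with the median of the lists as a bar. The Col2a1 and Comp windows hold HA peaks in all 10 lists and no H3K27me3 peak. The Ihh, Acan and Col9a1 windows hold H3K27me3 in all 9 lists with HA over at most 6.25%. The Matn1 and Col10a1 windows also hold H3K27me3 in all 9 lists, with HA over up to 18.5 and 27.3%.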

How the data were processed

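Peaks from CUT&RUN with anti-H3K27me3 and anti-HA were analysed. Samples with IgG or anti-H3K4me3 were not used here. The authors aligned reads with Rsubread to mm10, and their peak caller was SEACR 1.3 (stringent, normalised mode); identical lists may be repeated libraries or merged calls. In the deposited lists, column 4 is the total signal of a peak, coverage summed over its length and not scaled to depth. Read totals were not used here, so precision rests on the spread between libraries. Because SEACR keeps a top share of blocks, the number of peaks is partly set by the caller. Genotype, antibody and replicate came from the sample titles.

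Peaks were joined to protein-coding genes of GENCODE vM21 with Python 3.11.15. Signal was scaled in each library by its median over the regions shared by all libraries fitted and tested with limma 3.58.1 in R 4.3.3 (trend, Benjamini-Hochberg, threshold 0.05), after a check on simulated data. The study modelled read counts, which signal of called peaks does not allow. Genes and regions entered the fit if each library of 1 genotype or more had a peak there. The cartilage genes, the list of 27 further genes and the tests were chosen with earlier results of these data known. Of the further genes, up to 3 lower and 3 higher in each mutant with the lowest adjusted p were named, and of the regions those over start sites and the strongest of each window. Alternatives were the scaling by summed signal, pseudocounts of 0.05 and 1, no filter, the upper 50% of peaks, 10 kb on each side, H3R17C in the fit, the replicate number as a block, leaving out each library, and 4 other definitions of a start-site peak.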

Additional observations from a re-analysis of the deposited data

Results flagged for a closer look

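The direct comparison of H3R2C with H3R26C by limma called 4 of the 6 genes in the fit at an adjusted p under 0.05. Such calls were common in this comparison. Of all 11223 genes, 19.3% had less H3K27me3 signal in H3R2C and 35.1% had more, at the same threshold. The count of 4 is therefore a description, and whether these genes were called more often than others was not tested. The log2 difference, H3R2C minus H3R26C, was -5.09 for Sox6, -1.35 for Col9a1, -0.72 for Ihh and 0.92 for Col10a1. The differences of Sox6 and Col9a1 passed under all alternatives run, whereas those of Ihh and Col10a1 were lost under 3 of 16 and 6 of 15.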

How the results depend on the processing

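The calls of Acan and Col9a1 in H3R2C, of Sox6 in H3R8C and H3R26C, of Acan in H3R26C, and of Sox6 and Col9a1 between H3R2C and H3R26C held under all 16 alternatives. Start-site peaks of Ihh, Acan and Sox6, and their absence at 5 genes, held under all 4 other definitions. With 5 kb on each side Col9a1 gained one in both H3R2C lists, and Matn1 lost it in 5 lists with the upper 50% of peaks and in 2 where at least 50% had to be covered. Sequencing depth was not used here, and a block of signal below the lists' lowest peak could not be seen. Replicate numbers did not pair the libraries (correlation of their deviations -0.0089 to 0.269 over genes). With the replicate block the counts of genes called were 4097 in H3R2C, 221 in H3R8C, 3350 in H3R26C and 6224 between H3R2C and H3R26C, against 3985, 309, 3279 and 6098 without it. Under it Acan and Pth1r in H3R8C lost their calls (adjusted p = 0.0584 and 0.0575) and Matn1 between H3R2C and H3R26C gained one (adjusted p = 0.0308). No such fit was made for H3R17C, whose 1 list carries replicate numbers of both blocks.

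Across all genes, 10 kb on each side gave 2260 called in H3R2C, 1296 in H3R26C, 3190 between H3R2C and H3R26C and 8 in H3R17C. In H3R8C no filter gave 137 and a pseudocount of 1 gave 145. In H3R17C a pseudocount of 0.05 gave 141, Acan among them (adjusted p = 0.0323), and the upper 50% of peaks gave 97. Leaving out 1 library gave 2322 to 3929 in H3R2C, 81 to 277 in H3R8C, 0 to 38 in H3R17C and 1848 to 2896 in H3R26C. For regions, the upper 50% of peaks gave 3677 in H3R2C, 806 in H3R8C, 2052 in H3R26C and 5056 between H3R2C and H3R26C, against 6304, 1246, 3287 and 8694, and no filter gave 232 in H3R8C. Leaving out 1 library gave 4189 to 6368 regions in H3R2C and 5680 to 8266 between H3R2C and H3R26C. The upper 50% of peaks and 10 kb leave less signal to test, and the cause of the other shifts was not tested.

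Of the 10 genes, no called difference changed sign, but that of Ptch1 in H3R2C did with 10 kb on each side (-0.63). Uncalled ones of the 10 did, and the cause was not tested. With 10 kb on each side the log2 difference was 0.050 for Ihh in H3R17C and 0.40 for Matn1 in H3R26C. Leaving out 1 library gave -0.48 to 0.85 for Sox6 in H3R2C, -0.30 to 0.53 for Matn1 in H3R8C, -0.28 to 0.030 for Col10a1, -0.80 to 0.030 for Matn1 and -0.26 to 0.10 for Ihh in H3R17C, and -0.70 to 0.13 for Matn1 in H3R26C. At the start-site region it gave -0.37 to 0.064 for Col9a1 in H3R26C. For Matn1 it gave -0.46 to 1.07 in H3R2C, -0.10 to 1.43 in H3R8C, -0.22 to 1.31 in H3R26C and -0.58 to 0.14 between H3R2C and H3R26C. No value could be had for Col10a1 with 10 kb on each side.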
